A study of Homo sapiens with 8 samples.

Results

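The genes described here are the interleukins, the chemokines and their receptors in A-498, an established human kidney carcinoma cell line. They were chosen by gene symbol: an interleukin name (IL followed by a number), a numbered CXC or CC chemokine, CX3CL1, or a numbered CXC, CC or atypical chemokine receptor. Of the 28395 genes in the table, 151 symbols matched. Leaving out 4 antisense genes and 2 divergent transcripts left 145 genes, and no pseudogene matched. The 50 genes with a mean normalized count of at least 10 over all 8 libraries are reported. Just inside that limit lay IL23A (10.2), CCL20 (11.1) and CCL28 (16.5), and just outside it IL17B (9.14), IL16 (9.01) and IL33 (8.95). Of the other 95 genes, 39 had no read in any library, and no library held more than 47 reads of any of them.

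The study asked how the transcriptome of A-498 changes when ANXA4 is knocked out. ANXA4 encodes annexin A4, a protein that binds membrane phospholipids in the presence of calcium. All cells carried a single guide RNA: control line 1 carried non-targeting sgRNA-1, control line 2 non-targeting sgRNA-2, the line labelled KO guide 1 ANXA4 sgRNA-1, and the line labelled KO guide 2 ANXA4 sgRNA-2. Each line gave 2 replicates, so each arm held 4 libraries. A guide was represented by 1 line, and a guide and its line cannot be told apart. All lines were grown in RPMI 1640 with 10% fetal calf serum and sampled after 24 hours without reaching confluence. The labels number the replicates and do not say how they were separated, so the spread between them may be technical.

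The libraries held 15784890 to 22631588 reads. ANXA4 (chromosome 2) had 2821 and 3614 normalized counts in replicates 1 and 2 of control line 1, and 3858 and 6773 in control line 2. It had 236 and 234 in the line labelled KO guide 1, but 3433 and 4142 in the line labelled KO guide 2, which lay within the range of the controls. Directions below therefore refer to the labels. Mitochondrial genes took 4.67% to 9.05% of the reads in 7 libraries and 13.8% in KO guide 2 replicate 2. The epithelial keratin and renal markers PAX8, PAX2, KRT8, KRT18 and CDH6 were present in every library, while EPCAM and LRP2 were near 0, and of the clear cell kidney cancer markers CA9 stayed at or under 24.8 and ANGPTL4 ranged from 108 to 1516. The leukocyte marker PTPRC did not exceed 1.21, and the summed markers of T and NK cells (highest 6.44), B cells (8.30), endothelium (6.24) and fibroblasts (23.9) were low. CD3E, CD2 and CDH5 were at 0 in every library. The summed myeloid markers were 34.9 to 45.8 in controls and 68.5 to 95.1 in the libraries labelled KO, of which ITGAM made up 21.8 to 29.4 and 57.9 to 83.8, while CD14, CSF1R and LYZ did not exceed 13.5 in any library. The sum of the epithelial and renal markers was also lower in controls (28414 to 37247) than in the libraries labelled KO (41463 to 49994). Most of that sum was KRT8 and KRT18, which were higher in every library labelled KO than in every control, whereas PAX8, PAX2 and CDH6 overlapped between the arms and the mean of CDH6 was higher in controls. The part of these markers in the results was not tested.

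Interleukins are secreted proteins that bind receptor chains at the surface of other cells or of the cell that made them. Chains that share the common gamma chain or gp130 signal through Janus kinases and STAT proteins, whereas IL-1 and IL-17 receptors recruit adaptor proteins that lead to NF-kB. Chemokines are small secreted proteins that attract leukocytes through G protein-coupled receptors, and atypical chemokine receptors bind and remove them. Kidney cancer cells are known to release some of these proteins themselves, CXCL8 and IL-6 among them.

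The promoters of CXCL1, CXCL2, CXCL3, CXCL8 and IL6 are shown because these genes were among those that differed between replicate numbers in every line. The 120 bases upstream of the annotated start are given 5′ to 3′ on the strand of the gene, from RefSeq (GRCh38.p14). Capitals mark matches to the kappa B-like pattern GGNNNTTCC.
CXCL1 (chr4:73869273-73869392, plus strand): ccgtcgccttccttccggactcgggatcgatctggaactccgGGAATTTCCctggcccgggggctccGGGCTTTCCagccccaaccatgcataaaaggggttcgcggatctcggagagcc
CXCL2 (chr4:74099196-74099315, minus strand): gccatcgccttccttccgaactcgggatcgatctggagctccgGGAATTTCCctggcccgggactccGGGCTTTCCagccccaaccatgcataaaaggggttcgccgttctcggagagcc
CXCL3 (chr4:74038690-74038809, minus strand): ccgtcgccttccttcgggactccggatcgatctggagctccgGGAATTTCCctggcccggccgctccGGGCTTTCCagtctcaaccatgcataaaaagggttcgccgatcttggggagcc
CXCL8 (chr4:73740449-73740568, plus strand): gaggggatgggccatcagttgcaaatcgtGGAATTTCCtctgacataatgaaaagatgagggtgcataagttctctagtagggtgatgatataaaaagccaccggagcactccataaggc
IL6 (chr7:22727080-22727199, plus strand): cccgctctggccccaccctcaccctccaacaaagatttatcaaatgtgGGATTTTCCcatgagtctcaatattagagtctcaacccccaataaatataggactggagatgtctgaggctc

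CXCL1, CXCL2 and CXCL3 each held 2 matches, and CXCL8 and IL6 held 1 each. The table of promoters covered 39 of the 50 genes. On either strand of the 250 bases upstream of the start, GGNNNTTCC was found in 19 of these 39 promoters (48.7%) and in 4678 of all 27305 promoters (17.1%). Promoters with a match included those of IL7R and IL13RA1, which were not called between replicates. The promoter of IL11, which was called between replicates, had no match. A link between the pattern and the replicate difference was not tested. The AP-1-like pattern TGANTCA was found in 6 of 39 (15.4%) and in 6.60% of all promoters. These are matches of letters and not measured binding sites, and CXCL1, CXCL2 and CXCL3 are close copies of each other that also share them.

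Levels per kilobase of exon differed widely between the genes. IL32, a cytokine without a close family, was highest at a mean of 2423 normalized counts per kilobase, followed by the monocyte attractant CCL2 (1015), CXCL8 (993) and the receptor chain IL13RA1 (441). CCL28 was lowest at 3.65. In the heat map of all 50 genes, the strongest contrasts lay between lines in some genes and between replicate numbers in others.

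**Figure D1:**
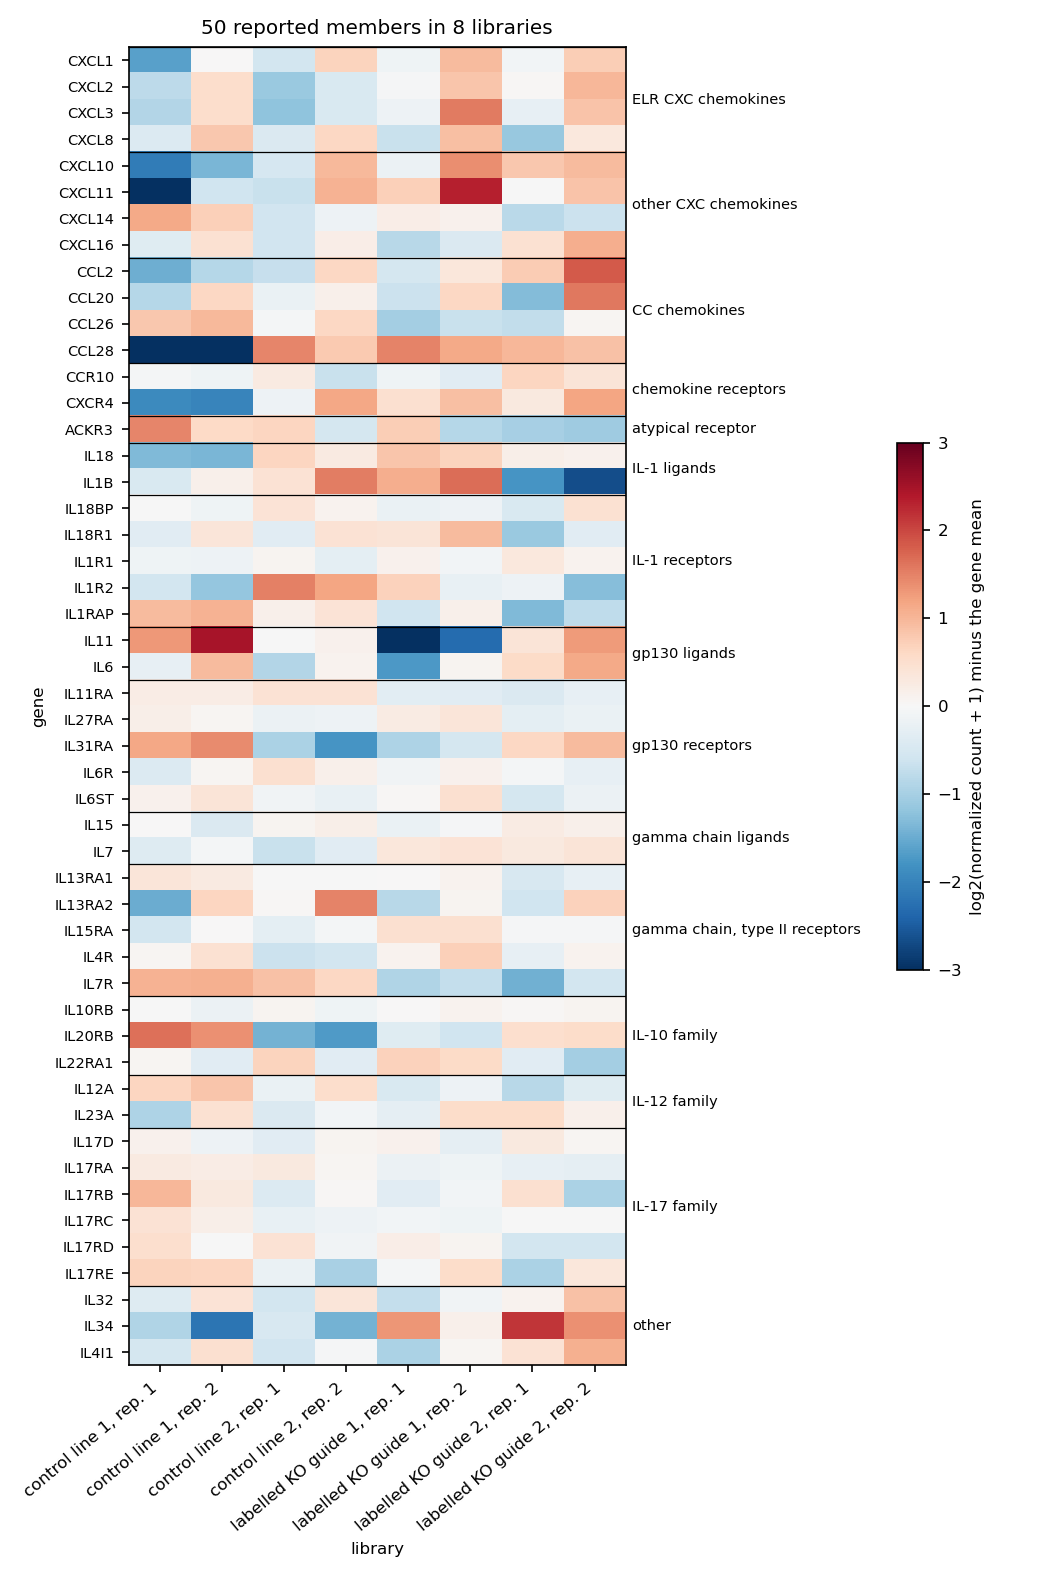
Each row is a gene, grouped by family, and each column a library; colour is log2(normalized count + 1) minus the mean of the gene over the 8 libraries, with the scale limited to 3 in either direction. IL7R is darker red in the control columns and IL34 in the columns labelled KO. IL1RAP is also darker in the controls, except that control line 2 replicate 1 and KO guide 1 replicate 2 are almost alike. CXCL1, CXCL2, CXCL3 and CXCL8 are higher in replicate 2 than in replicate 1 of each line.

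The comparison of the arm labelled KO with the control arm came first. IL7R, which encodes the alpha chain of the receptor for interleukin-7 (chromosome 5), was lower in the libraries labelled KO and was the single member of 50 to be called, beside 0.235% of all tested genes. A gene is called where its adjusted p over all 14040 tested genes is under 0.05, and differences are on the scale log2(normalized count + 1). Its normalized counts were 471 and 477 in control line 1, 419.9 and 353 in control line 2, 121 and 138 in the line labelled KO guide 1, and 83.8 and 156 in the line labelled KO guide 2. The 4 libraries labelled KO all lay below the 4 controls. RNA from bulk cultures does not tell fewer expressing cells from less RNA per cell. The means were 430.4 ± 57.3 in controls and 125 ± 30.7 in the arm labelled KO (SD, n = 4 libraries each). The log2 difference was -1.81 (SE 0.26), with an adjusted p of 0.0238 by limma and 0.0448 in a fit with the replicates blocked by number. Within replicate 1 the difference was -2.13 and within replicate 2 it was -1.48. Over 12 other settings the difference ranged from -1.82 to -1.73 and the adjusted p from 5.28e-14 to 0.387, the highest value from a fit of 4 line means. The call was lost without control line 1 replicate 1 (adjusted p = 0.0664), control line 1 replicate 2 (0.0623) or control line 2 replicate 1 (0.0581).

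Of the 50 members, 9 had an unadjusted p under 0.05 between the arms, beside 11.5% of all tested genes. The median log2 difference was 0.05 over the members and 0.00 over all tested genes. The arms did not overlap in 5 members, against 10.6% of all tested genes: IL7 and IL34 were above the controls in every library labelled KO (5.11% of all tested genes), and IL7R, IL17RA and IL11RA were below them (5.51%).

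IL34, a ligand of the receptor CSF1R that supports macrophages, had low counts in the controls (chromosome 16). The values were 16.5 and 6.24 in control line 1, 22.4 and 11.3 in control line 2, 80.6 and 35.3 in the line labelled KO guide 1, and 145 and 84.5 in the line labelled KO guide 2. In each of the 4 lines replicate 1 exceeded replicate 2. The log2 difference between the arms was 2.49 (SE 0.58), with an adjusted p of 0.127. With the replicate block the adjusted p was 0.0417, and over 12 settings it ranged from 1.14e-05 to 0.511. Against the controls, the line labelled KO guide 1 was higher by 1.98 (SE 0.49, adjusted p = 0.048) and the line labelled KO guide 2 by 3.01 (SE 0.49, adjusted p = 0.00695). The call for KO guide 1 was lost without either of its own replicates, with log2 differences of 1.39 (adjusted p = 0.344) and 2.56 (0.108) when replicate 1 or replicate 2 was left out. It was also lost without control line 1 replicate 1 (0.0508), control line 1 replicate 2 (0.126) or control line 2 replicate 2 (0.0987).

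IL7, the ligand of IL7R (chromosome 8), was called higher for KO guide 2. It had 86.4 and 109 normalized counts in control line 1, 70.6 and 89.5 in control line 2, 144 and 149 in the line labelled KO guide 1, and 139 and 148 in the line labelled KO guide 2. The libraries labelled KO were tightly grouped and all above the controls. The difference between the arms was 0.72 (SE 0.21) and did not pass (adjusted p = 0.222). Its call for KO guide 2 was a difference of 0.70 (SE 0.19, adjusted p = 0.0461), kept in 1 of 8 fits that left out a library, the one without control line 2 replicate 2. In the other 7 the adjusted p was 0.0692 to 0.155. IL7 overlaps ZC2HC1A and MITA1 in the annotation, and reads of overlapping genes cannot be separated if strand was not used in counting.

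Against both control lines, 14 of 50 members were called in at least 1 of the lines labelled KO, beside 15.5% of all tested genes. Of these, 5 were called in both lines, beside 2.71% of all tested genes: IL7R, IL34, IL18, CXCR4 and CCL28. These comparisons share the 4 control libraries, so calls in both lines are not independent of each other. In the line labelled KO guide 1, 4 members were called higher and 3 lower, 7 of 50 beside 7.01% of all tested genes (3.82% higher and 3.18% lower). In the line labelled KO guide 2, 6 were higher and 6 lower, 12 of 50 beside 11.2% (4.54% higher and 6.67% lower). With the replicate block the counts were 25 (24.4% of all tested genes) and 33 (27.4%). The medians over the members were -0.02 and 0.11, with 0.00 and 0.01 over all tested genes. For KO guide 1 fewer members were called without either of its replicates or either replicate of control line 1. The share over all tested genes fell as well in these fits, which leave a line without replication. The same held for KO guide 2 without either of its replicates or either replicate of control line 1, in the members and over all tested genes.

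**Figure D2:**
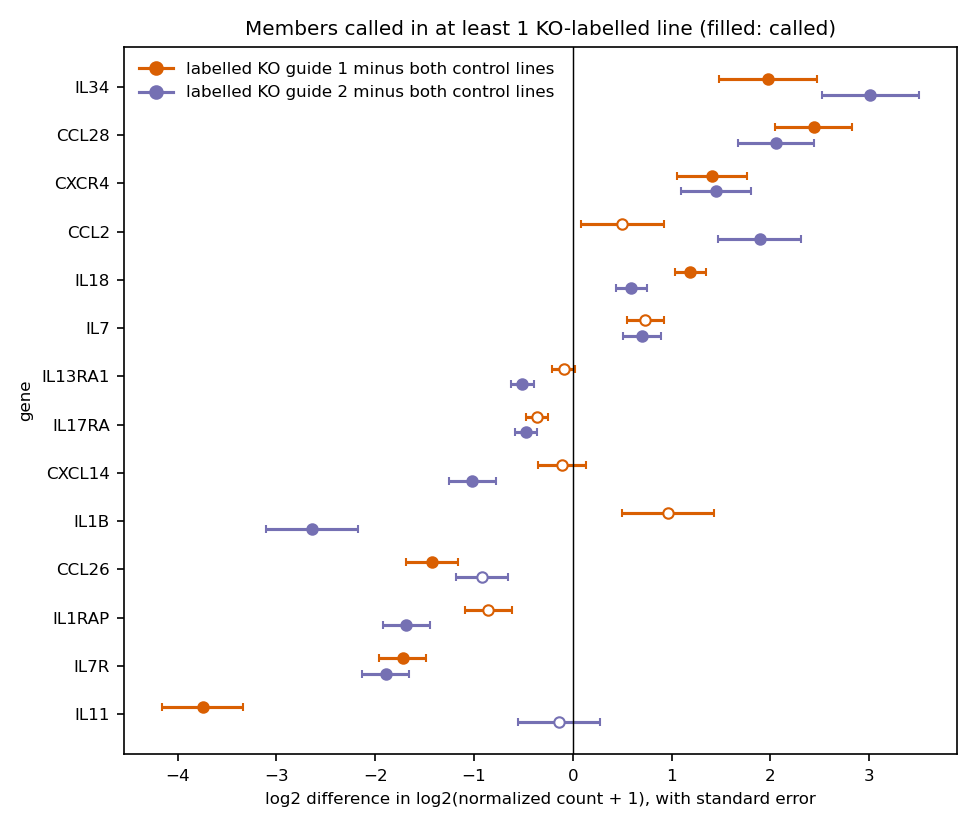
Points give the log2 difference of each line labelled KO from the 4 control libraries, on the scale log2(normalized count + 1), and bars give the standard error; filled points are called. IL7R lies at -1.72 and -1.89 in the 2 lines, whereas IL11 lies at -3.74 in the line labelled KO guide 1 and at -0.14 in the line labelled KO guide 2.

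For KO guide 1 the IL7R difference from the controls was -1.72 (SE 0.24, adjusted p = 0.00483). For KO guide 2 it was -1.89 (SE 0.24, adjusted p = 0.00263). The first of these calls was lost without replicate 1 (0.0727) or replicate 2 (0.0518) of that line, and the second was kept in all 8 fits that left out a library. The lines labelled KO differed from each other by -0.17 (adjusted p = 0.731), and the control lines by -0.30 (adjusted p = 0.724).

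Of 5 reported receptor genes of the common gamma chain and type II group (IL4R, IL7R, IL13RA1, IL13RA2 and IL15RA), IL7R alone was called for KO guide 1 and IL7R and IL13RA1 for KO guide 2, all lower. IL13RA1, a chain of the receptors for IL-4 and IL-13, had 2445 and 2279.7 normalized counts in control line 1, 1890.2 and 1873 in control line 2, 1916 and 2040.4 in the line labelled KO guide 1, and 1363 and 1606 in the line labelled KO guide 2. The lowest 2 values were those of the line labelled KO guide 2. Its difference from the controls was -0.51 (SE 0.11, adjusted p = 0.0232), a call lost without control line 1 replicate 1 (0.0847), control line 1 replicate 2 (0.0634), control line 2 replicate 1 (0.0502) or KO guide 2 replicate 1 (0.107). IL4R, the chain shared by those receptors, differed from the controls by 0.58 in the line labelled KO guide 1 (adjusted p = 0.119, 0.00313 with the block) and by 0.11 in the line labelled KO guide 2 (adjusted p = 0.786). IL15RA ranged from 114 to 231 and IL15, its ligand, from 129 to 207.

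**Figure D3:**
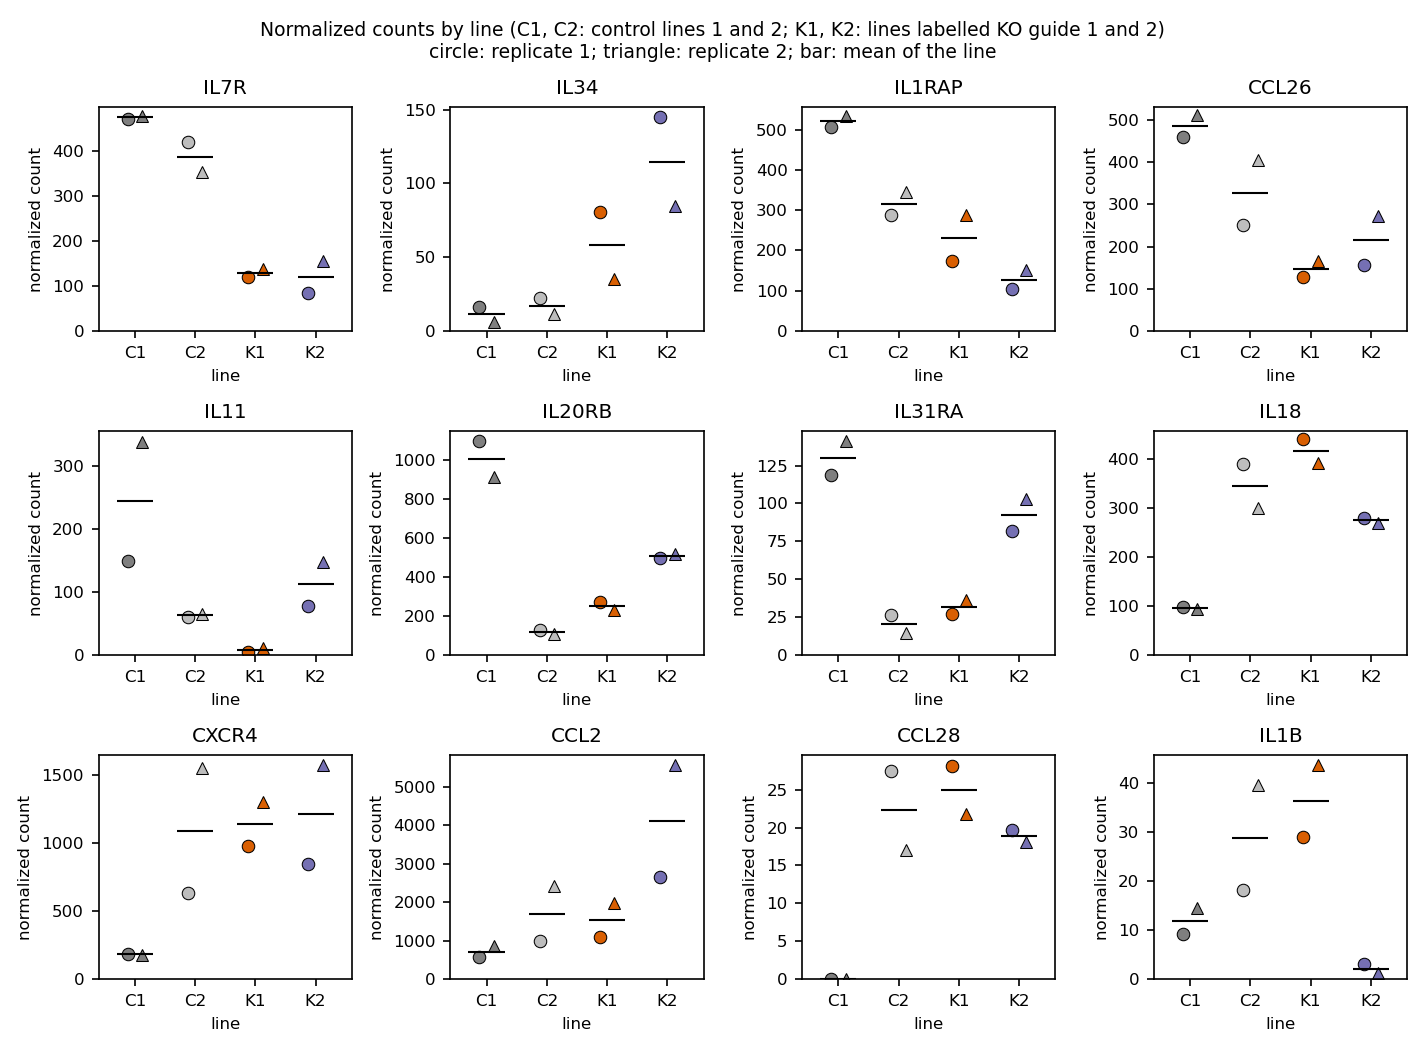
Normalized counts of 12 members by line, on linear axes from 0, with circles for replicate 1, triangles for replicate 2 and a bar for the mean of the line. IL7R separates the control lines from the lines labelled KO. IL11 is lowest in the line labelled KO guide 1 (5.48 and 11.4) and IL1B in the line labelled KO guide 2 (3.10 and 1.21). Control line 1 stands apart in IL20RB, IL18, CXCR4 and CCL28. In IL31RA, control line 1 and the line labelled KO guide 2 are above control line 2 and the line labelled KO guide 1.

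Among the gp130 cytokines, IL11 differed most. IL11 encodes interleukin-11, a ligand that signals through IL11RA and gp130 (chromosome 19). It had 149 and 339 normalized counts in control line 1, 60.2 and 65.7 in control line 2, 5.48 and 11.4 in the line labelled KO guide 1, and 78.6 and 148 in the line labelled KO guide 2. The line labelled KO guide 1 was below every other library, while the line labelled KO guide 2 fell within the range of the controls. Against the controls the differences were -3.74 (SE 0.41, adjusted p = 0.00185) for KO guide 1 and -0.14 (SE 0.41, adjusted p = 0.871) for KO guide 2. The difference between the lines labelled KO was itself tested and was 3.6 (SE 0.47, adjusted p = 0.00572). Both calls were kept in all 8 fits that left out a library, with adjusted p of at most 0.0314 and 0.0458. The control lines differed by -1.82 (SE 0.47), which passed with the replicate block only (adjusted p = 0.0916, 0.00146 with the block). IL11 was also higher in replicate 2, by 0.79 (SE 0.19, adjusted p = 0.0178). That call was lost without either replicate of control line 1 (0.0920 and 0.1) or of the line labelled KO guide 2 (0.0720 and 0.0754).

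IL6, the founding ligand of the gp130 family, had 311 and 716 normalized counts in control line 1, 201 and 398 in control line 2, 112 and 395 in the line labelled KO guide 1, and 556 and 814 in the line labelled KO guide 2. It was called in none of the comparisons of lines without the block, and was higher in replicate 2 in every line. The differences from the controls were -0.79 for KO guide 1 (adjusted p = 0.388, 0.0114 with the block) and 0.88 for KO guide 2 (0.326, 0.00548 with the block). The annotated IL6-AS1 overlaps the gene.

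The 5 gp130-type receptor genes were reported in full, and 2 of them were called. IL31RA, a chain of the interleukin-31 receptor (chromosome 5), had 119 and 141 normalized counts in control line 1, 26.7 and 14.7 in control line 2, 27.4 and 36.3 in the line labelled KO guide 1, and 81.7 and 103 in the line labelled KO guide 2. High and low lines occurred in both arms. Control line 2 was below control line 1 (log2 difference -2.65, SE 0.33, adjusted p = 0.00845), a call lost without control line 1 replicate 1 (0.069) or replicate 2 (0.0965). Of the lines labelled KO, KO guide 2 was above KO guide 1 by 1.51 (SE 0.33, adjusted p = 0.0333). Leaving out control line 1 replicate 1, control line 1 replicate 2, KO guide 1 replicate 1, KO guide 1 replicate 2 or KO guide 2 replicate 2 ended that call (0.0658 to 0.171).

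IL27RA, a chain of the interleukin-27 receptor, varied less. It had 839 and 784 in control line 1, 657 and 678 in control line 2, 881 and 957 in the line labelled KO guide 1, and 606 and 649 in the line labelled KO guide 2. The lines labelled KO lay on opposite sides of the controls' mean of 739.6. They differed by -0.55 (SE 0.13, adjusted p = 0.0432), but in each of the 8 fits that left out a library the adjusted p was 0.0549 to 0.261. IL6ST, which encodes gp130 itself, ranged from 2210.1 to 4489, IL6R from 83.7 to 157 and IL11RA from 36.2 to 66.8, and none of these was called. IL11RA had 57.0, 57.2, 66.2 and 66.8 in the controls and 39.1, 38.4, 36.2 and 41.0 in the libraries labelled KO, which did not overlap. IL11RA overlaps CCL27 in the annotation, and IL6R overlaps IL6R-AS1.

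In the IL-1 family, 2 ligands and 5 receptors or binding proteins were reported. IL1RAP is the accessory chain that IL-1, IL-33 and IL-36 receptors share (chromosome 3). It had 508 and 535 normalized counts in control line 1, 287 and 344 in control line 2, 173 and 288 in the line labelled KO guide 1, and 103 and 152 in the line labelled KO guide 2. KO guide 1 replicate 2 and control line 2 replicate 1 had almost the same value, and the arms were otherwise apart. The line labelled KO guide 2 was lower than the controls (log2 difference -1.68, SE 0.24, adjusted p = 0.0038), and this call was kept in all 8 fits that left out a library. KO guide 1 differed by -0.85 (SE 0.24, adjusted p = 0.0645), which passed with the block (0.00173). Over both lines the difference was -1.27 (SE 0.34, adjusted p = 0.179).

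IL18, a cytokine that epithelial cells store as a precursor (chromosome 11), separated control line 1 from the other lines. It had 98.4 and 94.6 normalized counts in control line 1, 391 and 299 in control line 2, 440.0 and 392 in the line labelled KO guide 1, and 280.3 and 269 in the line labelled KO guide 2. Control line 1 was the lowest line and control line 2 lay among the lines labelled KO. Control line 2 exceeded control line 1 by 1.81 (SE 0.18, adjusted p = 0.00216), and this was kept in all 8 fits that left out a library. Against both control lines, KO guide 1 was higher by 1.19 (SE 0.16, adjusted p = 0.00421), a call lost without its replicate 1 (0.0727). KO guide 2 was higher by 0.59 (SE 0.16, adjusted p = 0.0439), a call kept without control line 2 replicate 1 and lost in the other 7 such fits (0.0756 to 0.136). The libraries labelled KO did not all exceed control line 2.

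IL1B, the gene of interleukin-1 beta (chromosome 2), had few reads. The normalized counts were 9.19 and 14.6 in control line 1, 18.1 and 39.7 in control line 2, 29 and 43.6 in the line labelled KO guide 1, and 3.10 and 1.21 in the line labelled KO guide 2. The last pair rested on 3 reads and 1 read. The mean of the controls was 9.45 times that of the line labelled KO guide 2 (95% counting interval of the low value 3.55 to 33.4), and the mean of the line labelled KO guide 1 was 16.8 times (6.32 to 59.4). These intervals cover counting error only. KO guide 2 was called lower than the controls (adjusted p = 0.00907, at most 0.0491 when a library was left out) and lower than KO guide 1 (adjusted p = 0.00885, lost without KO guide 1 replicate 1 at 0.0512 or replicate 2 at 0.106).

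IL1R2, the decoy receptor of IL-1, was called in no comparison, although its line means ranged from 12 in control line 1 to 57.8 in control line 2. Its values were 14.7 and 9.36 in control line 1, 64.5 and 51.0 in control line 2, 36.0 and 18.7 in the line labelled KO guide 1, and 19.6 and 8.45 in the line labelled KO guide 2. The control lines differed by 2.19 (SE 0.49, adjusted p = 0.0592, 0.00184 with the block). IL18R1, a chain of the interleukin-18 receptor, had 87.3 and 142 in control line 1, 86.9 and 149.6 in control line 2, 144 and 216 in the line labelled KO guide 1, and 50.7 and 86.9 in the line labelled KO guide 2. It was higher in replicate 2 in each line. The lines labelled KO differed by -1.40 (SE 0.39, adjusted p = 0.0651, 0.000298 with the block). IL1R1, the signalling receptor of IL-1, ranged from 468 to 708 and IL18BP, the soluble inhibitor of interleukin-18, from 53.8 to 101. IL1R1 overlaps IL1R1-AS1 and IL18BP overlaps NUMA1.

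Of 6 reported genes of the IL-17 family, 1 was called. IL17RA, the chain common to the IL-17 receptors (chromosome 22), had 2184 and 2099 normalized counts in control line 1, 2197 and 1888 in control line 2, 1606 and 1641 in the line labelled KO guide 1, and 1516 and 1489.6 in the line labelled KO guide 2. All libraries labelled KO lay below all controls, in a narrow range. Between the arms the difference was -0.42 (SE 0.13, adjusted p = 0.237). KO guide 2 was called lower than the controls (log2 difference -0.47, SE 0.11, adjusted p = 0.0268), and KO guide 1 differed by -0.36 (adjusted p = 0.0835, 0.0147 with the block). The call for KO guide 2 was kept in the fit without control line 2 replicate 2 and lost in the other 7 that left out a library (0.0571 to 0.0918). The other receptor chains were IL17RC (354 to 566), IL17RD (43.4 to 91.9), IL17RB (10.9 to 45.1) and IL17RE (9.06 to 30.3). The ligand IL17D ranged from 33.6 to 52.7.

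In the IL-10 family, IL20RB differed strongly between lines. IL20RB is a chain of the receptors for interleukins 19, 20 and 24 (chromosome 3). It had 1098 and 912 normalized counts in control line 1, 129.9 and 106 in control line 2, 273 and 230.3 in the line labelled KO guide 1, and 498 and 515 in the line labelled KO guide 2. Both lines labelled KO lay between the control lines. Control line 2 was lower than control line 1 (log2 difference -3.08, SE 0.18, adjusted p = 7.37e-05), and the call was kept in all 8 fits that left out a library. Between the lines labelled KO, KO guide 2 was the higher by 1.01 (SE 0.18, adjusted p = 0.0163), a call lost without KO guide 1 replicate 1 (0.0647), KO guide 1 replicate 2 (0.146) or KO guide 2 replicate 2 (0.0623). IL20RB-AS1 overlaps the gene. IL10RB, the chain shared by several receptors of the family, varied little (882 to 1076) and shares sequence with the readthrough gene IFNAR2-IL10RB. IL22RA1, a chain of the interleukin-22 receptor, ranged from 22.9 to 77.5.

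The IL-12 family was represented by 2 subunits, neither of them called. IL12A, the p35 subunit, ranged from 19.6 to 64.5, and IL23A, the p19 subunit of interleukin-23, from 4.60 to 14.5. IL12A overlaps IL12A-AS1.

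Among the CC chemokines, CCL2, the attractant of monocytes (chromosome 17), was highest in the line labelled KO guide 2. It had 564 and 861 normalized counts in control line 1, 978 and 2428 in control line 2, 1092 and 1973 in the line labelled KO guide 1, and 2660.0 and 5577 in the line labelled KO guide 2. The last line exceeded the controls by 1.89 (SE 0.42, adjusted p = 0.0232), a call lost without control line 1 replicate 1 (0.0738) or KO guide 2 replicate 2 (0.133). KO guide 1 differed by 0.50 (adjusted p = 0.506, 0.0133 with the block). The arms overlapped, and their difference of 1.20 (SE 0.59) did not pass (adjusted p = 0.479).

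CCL26, or eotaxin-3, an attractant of eosinophils (chromosome 7), was lower in the line labelled KO guide 1. It had 459.7 and 512 in control line 1, 250.4 and 404 in control line 2, 128 and 165 in the line labelled KO guide 1, and 157 and 273 in the line labelled KO guide 2. Apart from the last of these values, which exceeded control line 2 replicate 1, the libraries labelled KO were below the controls. KO guide 1 differed by -1.43 (SE 0.26, adjusted p = 0.0175), a call lost without control line 1 replicate 1 (0.0514), control line 1 replicate 2 (0.0647), KO guide 1 replicate 1 (0.165) or KO guide 1 replicate 2 (0.0911). KO guide 2 differed by -0.92 (SE 0.26, adjusted p = 0.0572, 0.000815 with the block), and the lines labelled KO differed from each other by 0.51 (adjusted p = 0.348).

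CCL28, a mucosal chemokine that CCR10 binds (chromosome 5), had no read in control line 1. It had 27.5 and 17.0 in control line 2, 28.2 and 21.8 in the line labelled KO guide 1, and 19.6 and 18.1 in the line labelled KO guide 2. Against a floor of 3 reads per library in control line 1, the means were at least 7.57-fold higher in control line 2, 8.50-fold in the line labelled KO guide 1 and 6.42-fold in the line labelled KO guide 2. Control line 2 was called higher than control line 1 (adjusted p = 0.00216, at most 0.023 when a library was left out). The lines labelled KO were called higher than both control lines together (adjusted p = 0.00921 and 0.012), although KO guide 2 lay within the range of control line 2 and KO guide 1 exceeded it by little (28.2 against 27.5 in replicate 1 and 21.8 against 17.0 in replicate 2). These calls were lost without replicate 1 (0.123) or replicate 2 (0.0827) of KO guide 1, and without replicate 1 (0.0626) or replicate 2 (0.0507) of KO guide 2. CCR10 itself ranged from 14.7 to 38.3 and was not called.

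Of the chemokine receptors, CXCR4, the receptor of CXCL12 (chromosome 2), was low in control line 1 alone. It had 186 and 177 normalized counts in control line 1, 631 and 1551 in control line 2, 979 and 1299.7 in the line labelled KO guide 1, and 849 and 1578 in the line labelled KO guide 2. Control line 2 exceeded control line 1 by 2.44 (SE 0.41, adjusted p = 0.0273). That difference was 3.09 without control line 2 replicate 1 and 1.79 without control line 2 replicate 2 (adjusted p = 0.0772). The call was also lost without control line 1 replicate 1 (0.149), control line 1 replicate 2 (0.200), KO guide 1 replicate 1 (0.0574) or KO guide 1 replicate 2 (0.057). The lines labelled KO exceeded the controls by 1.41 (SE 0.35, adjusted p = 0.0482) and 1.45 (SE 0.35, adjusted p = 0.0321), and differed from each other by 0.04 (adjusted p = 0.964). For KO guide 1 the call was lost without control line 1 replicate 1 (0.107), control line 1 replicate 2 (0.131), KO guide 1 replicate 1 (0.181) or KO guide 1 replicate 2 (0.307). For KO guide 2 it was lost without either replicate of control line 1 (0.0818 and 0.086), either replicate of KO guide 1 (0.0549 and 0.0545) or KO guide 2 replicate 2 (0.174). The libraries labelled KO did not separate from control line 2.

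ACKR3, the atypical receptor that takes up CXCL12 (chromosome 2), had 1480.3 and 804 in control line 1, 836 and 372 in control line 2, 888 and 293 in the line labelled KO guide 1, and 269 and 252 in the line labelled KO guide 2. Replicate 1 was the higher in every line, by little in the line labelled KO guide 2. The difference of KO guide 2 from the controls was -1.58 (SE 0.46), which passed with the block only (adjusted p = 0.0606, 0.000269 with the block). CXCL14, a chemokine of epithelial cells (chromosome 5), had 107 and 80.1 in control line 1, 31.8 and 43.1 in control line 2, 55.6 and 52.9 in the line labelled KO guide 1, and 26.9 and 30.2 in the line labelled KO guide 2. Again control line 1 was highest. KO guide 2 was called lower than the controls (log2 difference -1.02, SE 0.24, adjusted p = 0.0292), a call kept without control line 2 replicate 1 and lost in the other 7 fits that left out a library (0.0543 to 0.109).

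The 2 control lines carried no guide against ANXA4, and their difference shows how far lines differ without one. Between them 5 members were called, IL18, CXCR4 and CCL28 higher in control line 2 and IL20RB and IL31RA lower, beside 2.13% of all tested genes (1.05% higher and 1.08% lower). With the block 18 were called, beside 12.5%. The median was -0.10 over the members and 0.00 over all tested genes. Without either replicate of control line 1 fewer members were called in the main model, and the share over all tested genes fell as well. Between the lines labelled KO, 5 members were called as well, beside 6.94% of all tested genes (2.41% higher and 4.53% lower): IL11, IL20RB and IL31RA were higher in the line labelled KO guide 2, and IL1B and IL27RA lower. With the block 22 were called (24.5%). Without the block, fewer than 5 were called when a replicate of KO guide 1, a replicate of control line 1 or KO guide 2 replicate 2 was left out. The share over all tested genes fell as well.

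The replicates of a line were then compared with each other. Within lines, 18 of 50 members were called higher in replicate 2 and 2 lower, 20 in all beside 17.6% of all tested genes (8.97% higher and 8.62% lower). With libraries scaled to equal totals the split was 15 higher and 4 lower, and over all tested genes it moved from 1260 higher and 1210 lower to 796 higher and 1868 lower. The median difference was 0.21 over the members and 0.00 over all tested genes. In 21 members replicate 2 was above replicate 1 in all 4 lines, beside 20.2% of all tested genes, and in 7 members below, beside 19.3%. Read depth was lower in replicate 2 in all 4 lines. The mitochondrial share was higher in replicate 2 in 3 lines (4.67% and 6.35%, 6.39% and 9.05%, 6.40% and 13.8%) and not in the line labelled KO guide 1 (6.43% and 6.23%). Their part in the result was not tested. Without KO guide 2 replicate 2, which leaves that line out of the comparison, 12 members were called higher and 2 lower. These were 14 in all, beside 8.2% of all tested genes.

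The neutrophil attractants with the ELR motif moved together: all 4 reported genes (CXCL1, CXCL2, CXCL3 and CXCL8) were called higher in replicate 2, with a median difference of 1.22. CXCL8, or interleukin-8, had 1501 and 3540.2 normalized counts in control line 1, 1483 and 3115 in control line 2, 1269 and 3736 in the line labelled KO guide 1, and 913 and 2511 in the line labelled KO guide 2. Every replicate 2 exceeded every replicate 1. The difference was 1.33 (SE 0.09, adjusted p = 2.41e-05). Between the arms CXCL8 differed by -0.29 (SE 0.60, adjusted p = 0.919), and this difference was 0.055 without KO guide 2 replicate 1.

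The 3 close relatives of CXCL8 had the same order of replicates. CXCL2 had 139 and 349 in control line 1, 112 and 174 in control line 2, 236 and 434 in the line labelled KO guide 1, and 246 and 485 in the line labelled KO guide 2 (difference 0.95, SE 0.12, adjusted p = 0.000889). CXCL3 had 34.9 and 94.6, 27.5 and 47.6, 58.7 and 196, and 54.8 and 119.5 in the same lines (1.25, SE 0.18, adjusted p = 0.00164). CXCL1 had 11 and 36.4, 24.1 and 57.8, 32.9 and 70.5, and 34.1 and 60.4 (1.19, SE 0.21, adjusted p = 0.00407). All 4 calls were kept in each of the 8 fits that left out a library. Reads of these similar genes may be assigned with error, so their separate values are uncertain. Against the controls, none of the 4 was called in either line labelled KO, with medians of 0.83 and 0.76. CXCL2 differed by 0.86 and 0.97 in these lines (adjusted p = 0.259 and 0.185, 0.00165 and 0.00056 with the block).

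**Figure D4:**
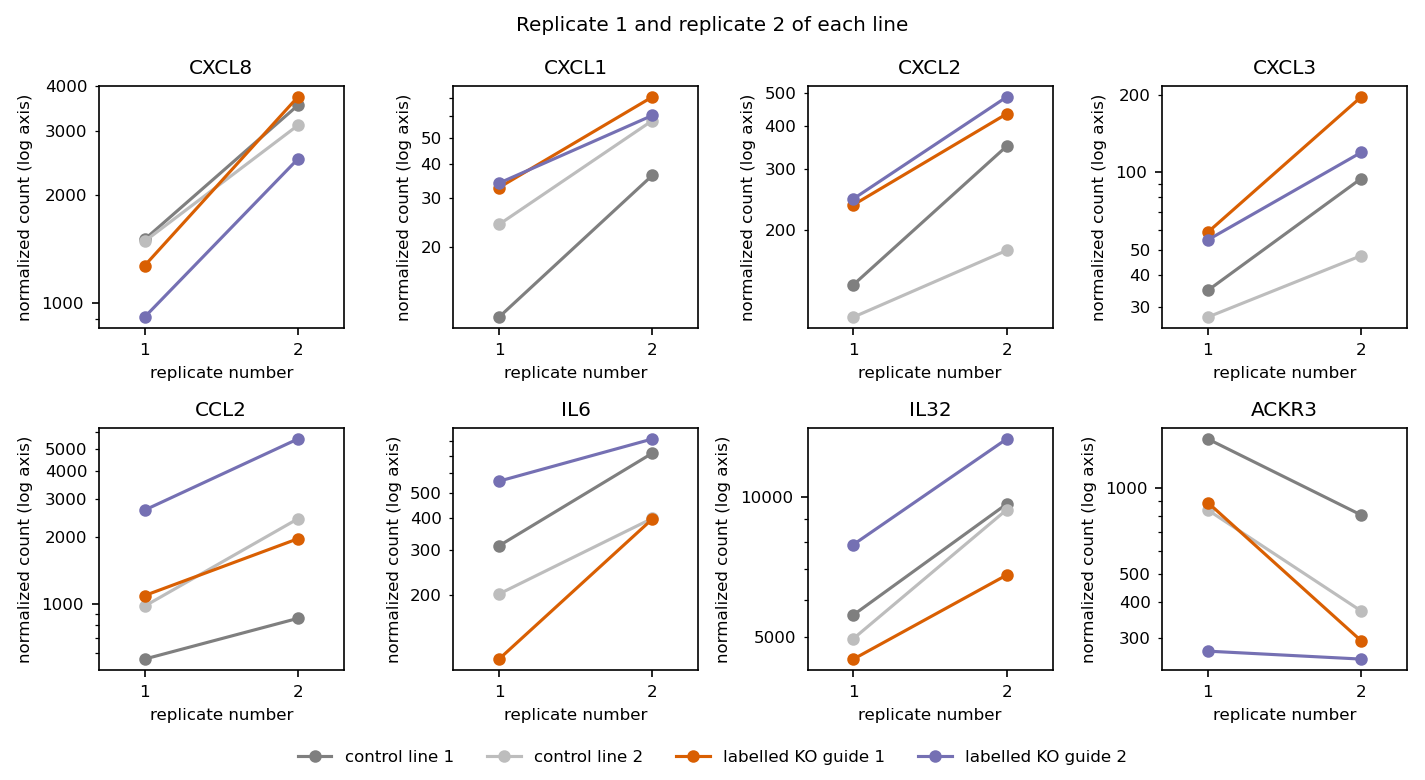
Normalized counts of 8 members in replicate 1 and replicate 2, with a line joining the replicates of each cell line; the vertical axes are logarithmic. CXCL8, CXCL1, CXCL2, CXCL3, CCL2, IL6 and IL32 rise in all 4 lines and ACKR3 falls in all 4, least in the line labelled KO guide 2 (269 and 252).

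IL32, CCL2, IL6, IL4I1 and IL18R1 were also called higher in replicate 2. IL32 had 5586 and 9674 in control line 1, 4967 and 9404 in control line 2, 4487 and 6805 in the line labelled KO guide 1, and 7916 and 13352 in the line labelled KO guide 2, a difference of 0.77 (SE 0.08, adjusted p = 0.000291). CCL2, described above, differed by 0.96 (SE 0.10, adjusted p = 0.000357) and IL6 by 1.13 (SE 0.16, adjusted p = 0.00132). IL4I1, an enzyme that oxidizes aromatic amino acids and is named after IL-4, had 209 and 422, 202 and 295, 155 and 314, and 406 and 634 in the same order of lines (0.80, SE 0.11, adjusted p = 0.00141). Each of these rose in all 4 lines, and the 4 calls were kept in all 8 fits that left out a library. IL4I1 overlaps NUP62 and ATF5. IL18R1, given above, differed by 0.71 (SE 0.13, adjusted p = 0.0049).

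The interferon-induced chemokines CXCL10 and CXCL11, which bind CXCR3, were low in all libraries. CXCL10 had 2.76 and 5.2 in control line 1, 10.3 and 30.6 in control line 2, 13.3 and 41.5 in the line labelled KO guide 1, and 26.9 and 30.2 in the line labelled KO guide 2. CXCL11 had 0 and 7.28, 6.88 and 24.9, 19.6 and 62.2, and 11.4 and 21.7 in the same lines. Replicate 2 exceeded replicate 1 in each line for both genes. The differences were 0.98 (SE 0.31, adjusted p = 0.0479) for CXCL10 and 1.82 (SE 0.37, adjusted p = 0.00782) for CXCL11. The CXCL10 call was kept without either library of KO guide 2 and lost without any of the other 6 libraries (0.0752 to 0.221). The CXCL11 call was lost without control line 2 replicate 2 (0.0518). Both genes overlap ART3. CXCL16, a membrane-bound chemokine, ranged from 15.7 to 61.6 without a call and overlaps MED11 and ZMYND15.

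IL13RA2, a decoy receptor for IL-13 (chromosome X), had 10.1 and 47.8 in control line 1, 31.0 and 86.1 in control line 2, 16.4 and 32.2 in the line labelled KO guide 1, and 19.6 and 49.5 in the line labelled KO guide 2. It was higher in replicate 2 by 1.45 (SE 0.24, adjusted p = 0.0031), and this was kept in all 8 fits that left out a library. CCL20, the ligand of CCR6, had 4.60 and 14.6, 7.74 and 10.2, 5.48 and 14.5, and 3.10 and 29 in the same lines, and was higher in replicate 2 by 1.49 (SE 0.41, adjusted p = 0.0289). The CCL20 call was kept without either replicate of control line 2 and lost without any of the other 6 libraries (0.0504 to 0.152).

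Smaller differences between replicates were seen for receptors and for CCL26. IL4R had 982 and 1291, 601 and 646, 1011 and 1546, and 797 and 1020.0 in the same lines, a difference of 0.37 (SE 0.09, adjusted p = 0.0193). It rose in every line, least in control line 2, and the call was kept only without a replicate of that line (0.0573 to 0.0721 without any of the other 6). IL1RAP differed by 0.41 (SE 0.12, adjusted p = 0.0401), kept without a replicate of control line 1 and lost without any of the other 6 libraries (0.101 to 0.14). CCL26 differed by 0.50 (SE 0.12, adjusted p = 0.0178), lost without a replicate of control line 2 (0.106 and 0.11) or of the line labelled KO guide 2 (0.0784 and 0.0814). CXCR4 differed by 0.63 (SE 0.17, adjusted p = 0.0242). Without a replicate of control line 2 the CXCR4 difference was 0.41 (adjusted p = 0.146 and 0.150), and it was also lost without one or the other KO guide 2 library (0.116 and 0.117).

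ACKR3 and IL34 were the 2 members called lower in replicate 2. ACKR3 differed by -0.93 (SE 0.18, adjusted p = 0.00595), a call lost without replicate 1 or replicate 2 of control line 2 (0.052 for each). IL34 differed by -1.04 (SE 0.21, adjusted p = 0.00715), and its call was kept in all 8 fits that left out a library. The remaining 5 members that were lower in replicate 2 in all 4 lines, IL1R1, IL18, IL22RA1, IL1R2 and CCR10, were not called.

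Other genes of the same pathways were examined as 4 lists. Of 22 tested genes that relay IL-1 and IL-17 signals, NFKBIA, the inhibitor of NF-kB, was called between the arms. It had 502 ± 33.9 normalized counts in controls and 1055 ± 49.6 in the libraries labelled KO (SD, n = 4 libraries each). Its difference was 1.07 (SE 0.14, adjusted p = 0.0121, 0.0262 with the block). In the fit of 4 line means no gene was called, NFKBIA included. TNFAIP3, a feedback inhibitor of NF-kB, differed by 1.34 between the arms (SE 0.29, adjusted p = 0.109) and CASP1, the protease that matures IL-1 beta and IL-18, by -0.95 (SE 0.39, adjusted p = 0.381). Against the controls 4 of the 22 genes were called higher for KO guide 1 (NFKBIA, TNFAIP3, IKBKB and IRAK2), beside 3.82% of all tested genes, and 3 for KO guide 2 (NFKBIA, TNFAIP3 and IKBKB), beside 4.54%. None was called lower. IKBKB also differed between the control lines, by 0.75 (SE 0.15, adjusted p = 0.0437). The median of the list between the arms was 0.11, beside 0.00 over all tested genes.

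None of 17 tested JAK, STAT and SOCS genes was called between the arms. The largest differences were those of JAK1 (0.85, SE 0.22, adjusted p = 0.170), CISH (-0.41, SE 0.30, adjusted p = 0.670) and SOCS3 (-0.36, SE 0.20, adjusted p = 0.535). JAK1, the kinase that serves gp130 and gamma chain receptors, was called higher in the line labelled KO guide 2, by 1.19 (SE 0.14, adjusted p = 0.00224). Of 6 tested gp130 cytokines and receptors without an interleukin name, none was called between the arms. LIFR differed by -0.44 (SE 0.27, adjusted p = 0.594) and EBI3 by 0.42 (SE 0.34, adjusted p = 0.717). For KO guide 2, 2 of the 6 genes were called lower than the controls, beside 6.67% of all tested genes. Against KO guide 1, 2 were called lower in KO guide 2 (4.53%). Control line 2 had 1 gene called higher than control line 1 (1.05%). In this list 4 of 6 genes were called higher in replicate 2, beside 8.97% of all tested genes: LIF, CLCF1, OSMR and EBI3, by 0.32 to 0.52. The other tested lists did not share this. Of the 22 relay genes, 2 were called higher in replicate 2 and 2 lower, with a median of -0.08. Of the 17 JAK, STAT and SOCS genes, 0 were called higher and 1 lower, with a median of -0.10. Over all tested genes 8.62% were called lower. None of 7 other chemokine genes, such as PPBP and XCL1, had enough reads to be tested.

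The 19 members called in no comparison without the replicate block were IL1R2 and 18 others with narrower line means. Among these, IL6ST, IL10RB, IL1R1 and IL17RC had the most reads, and IL15, IL15RA, IL6R, IL18BP, IL17RD, IL22RA1, IL11RA, IL17D, IL12A, CXCL16, CCR10, IL17RB, IL17RE and IL23A fewer. Of the 95 genes below the limit, 75 had at most 3 reads in any library. IL2, IL9 and CXCL12, the ligand of CXCR4 and ACKR3, had no read in any library, where a count of 0 allows up to 3 reads per library. Among the 95 genes the highest count in 1 library was that of IL33, with 47 reads there and 68 in all. By mean, IL17B (9.14) and IL16 (9.01) lay above IL33 (8.95).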

How the data were processed

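Polyadenylated RNA of 8 A-498 cultures was sequenced with NEBNext Ultra II libraries on a NovaSeq 6000, per the labels' protocols. The submitters' processing notes name fastp 0.23.2, HISAT2 2.2.1, featureCounts 2.0.1, DESeq2 2.11.40.8 and hg38; the annotation and strand use are not given in the sources used here. The deposited values are a normalized signal, 1 column per library. All were whole multiples of the value of 1 read (100%, relative tolerance 1e-06), so whole reads were recovered; the text calls the deposited values normalized counts. Of 28395 genes, 27745 had a symbol in RefSeq (GRCh38.p14), which also gave chromosomes and promoter sequences.

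The 14040 genes with a value of 10 or more in 2 or more libraries were fitted on log2(value + 1) with limma 3.58.1 (R 4.3.3), with a mean-variance trend and Benjamini-Hochberg adjustment. The arms were compared with the correlation between libraries of a line (0.33), single lines in a model with a mean per line, and replicates with line as a term. The main fits of the arms and of single lines had no term for the replicate number. In the replicate comparison and the replicate block, replicate numbers from the titles were taken as pairs. The reason was that the difference of replicate 2 from replicate 1 correlated across genes at 0.285 to 0.501 in all 6 pairs of lines (limit 0.1). The 2 replicates of each line differed beyond sampling noise (chi-square per degree of freedom 18.1 to 70.6), and their Pearson's r was 0.978 to 0.987. Alternatives covered the pseudocount, the filter, the scaling, the replicate block, each library left out, edgeR 4.0.16 and DESeq2 1.42.0 on the recovered reads. The fits were tested on simulated data with known changes. These held no effect of the replicate number, so the test does not cover the replicate effect of the real libraries. The members, lists and rules were chosen with earlier results of these data known. Named were ANXA4, IL7R and CXCL8, all members called in any comparison, members whose line means differed at least 3-fold, the pathway genes called between the arms and the 3 largest differences per list; 1 of these genes is not reported here. Counts carry no molecular identifiers, so intervals and floors cover counting error only.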

Additional observations from a re-analysis of the deposited data

Results flagged for a closer look

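ACKR3 was flagged among the 4 libraries labelled KO, where KO guide 1 replicate 1 had 888 normalized counts and the other 3 had 293, 269 and 252. It was the only value flagged in 100 groups of 4 libraries tested (Dixon's test). Chance alone gives about 1 in 20, so 1 flag is fewer than chance would give. Each group mixed lines and replicate numbers, and ACKR3 was higher in replicate 1 in every line.

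In 5 members the lines labelled KO guide 1 and KO guide 2 differed from each other by the test of that difference. KO guide 2 minus KO guide 1 was 3.6 for IL11, 1.51 for IL31RA, 1.01 for IL20RB, -0.55 for IL27RA and -3.6 for IL1B, where the last rests on 4 reads in the line labelled KO guide 2 and is no bound. For IL20RB and IL31RA the control lines differed by more, -3.08 and -2.65.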

How the results depend on the processing

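The IL7R difference between the arms kept its direction in every fit run. Over 50 members, the number called between the arms was 1, and it was 2 with the replicate block, 12 with a separate mean for each line, 0 with line means, 2 with edgeR, 6 with DESeq2 and 0 to 1 with a library left out. Against the controls, KO guide 1 gave 7 (7.01% of all tested genes). It gave 4 with a filter on a mean of at least 50 (35 members tested, 7.45%), 25 with the replicate block (24.4%) and 12 with DESeq2 (10.2%). KO guide 2 gave 12, and 33 with the replicate block and 5 to 13 with a library left out. The control lines gave 5 (2.13%), and 18 with the block (12.5%) and 9 with DESeq2 (4.61%). The lines labelled KO gave 5, and 3 with no filter on low values, 22 with the block, 9 with DESeq2 and 1 to 4 with a library left out. Replicates gave 20 (17.6%), and 14 to 16 with a library left out (5.05% to 16.5%). With line means no gene was called; 1086 had an unadjusted p under 0.05.

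The cause of these moves was not tested, apart from the smaller number of genes or libraries where these were left out. The block ended no call. ANXA4 in KO guide 2 against the controls differed by -0.10, but by 0.10 without control line 2 replicate 2 and by 0.04 without KO guide 2 replicate 1, within -0.30 to 0.10 over all 8 such fits. CXCL8 between the arms differed by -0.29, but by 0.055 without KO guide 2 replicate 1, within -0.65 to 0.055 over all 8. Of the calls rechecked, TMM scaling ended none, equal totals ended 5 and no filter ended 9. TMM added IL7 for KO guide 1 (8 members called, adjusted p = 0.0484) and IL1R2 between replicates (21 called, adjusted p = 0.0499). Over all tested genes, 33 were called between the arms, and 71 with no filter. The fits that took the libraries of a line as independent gave 186 with edgeR, 848 with DESeq2 and 1474 with a separate mean for each line. With equal totals, 12 were higher and 15 lower, against 18 and 15. The block gave 3432, 3851, 1752 and 3442 for the 4 comparisons of lines, against 984, 1573, 299 and 975, and no filter gave 183 between the control lines. DESeq2 gave 647 for those lines and no adjusted p for CCL20 between replicates. Members near 10 normalized counts rest on few reads.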
